A study of Danio rerio with 18 samples.

Results

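The parvalbumin family was taken as the 9 genes named pvalb1 to pvalb9 among the 31901 genes of the count table, and was followed through all 7 groups of libraries. The study sequenced mRNA from whole zebrafish carrying the kif7co63 allele, a model of late-onset idiopathic scoliosis, at 6 weeks past fertilization (wpf) and at 4 days past fertilization (dpf). At 6 wpf each library came from 1 fish: 3 scoliotic kif7co63/co63 fish, 3 non-scoliotic kif7co63/co63 fish, 3 kif7co63/+ fish and 3 wild-type AB fish. At 4 dpf each library came from a pool of 20 embryos: 2 pools of kif7co63/co63, 2 of kif7co63/+ and 2 of AB, with no phenotype label. The allele was made with CRISPR-Cas9 and its carriers were outcrossed to AB.

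Parvalbumins are small cytosolic proteins that bind Ca2+ through EF-hand loops. In fast skeletal muscle they take up Ca2+ after a contraction and speed relaxation, and fish muscle is known for very large amounts of them. Other members mark particular nerve cells and sensory hair cells, where they shape brief Ca2+ signals. In zebrafish, pvalb1, pvalb2 and pvalb4 are known from skeletal muscle, pvalb7 from Purkinje cells of the cerebellum and pvalb8 from hair cells. The genes pvalb8 and pvalb9 are of the oncomodulin type.

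Libraries held 44503110 to 69698533 reads assigned to genes. Levels are given as CPM, counts scaled to a library of 1000000 reads after correction by the trimmed mean of M values (TMM), or as CPM per kilobase of the table's gene length (FPKM) where genes are compared with each other. The mutated gene, kif7, was at 25.8 to 28.8 CPM in scoliotic, 25.4 to 29.8 in non-scoliotic, 23.6 to 32.3 in kif7co63/+ and 41.7 to 47.8 CPM in AB fish. At 4 dpf it was at 10.8 to 21.5 CPM in kif7co63/co63, 14.8 to 15.6 in kif7co63/+ and 12.97 to 15.2 CPM in AB pools. The 2 kif7co63/co63 pools of 4 dpf differed strongly from each other. A chi-square between the 2 pools of that group averaged 479 per gene, against 27.4 to 152 in every other pair of libraries of the same group. That value belongs to the pair and cannot tell which pool is unusual. Results that rest on these pools are therefore also given without the first pool, and in part without the second. In whole-body RNA, fewer cells of a type and less RNA per cell cannot be told apart, and p-values measure the spread between these fish or pools.

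On the GRCz11 assembly, 4 members lay side by side on the minus strand of chromosome 3. These were pvalb8 (ENSDARG00000037790, chr3:61154219-61162750), pvalb4 (ENSDARG00000024433, chr3:61174750-61185746), pvalb1 (ENSDARG00000037789, chr3:61193890-61205711) and pvalb5 (ENSDARG00000032836, chr3:61208544-61218375). The cluster spanned 64.2 kb and held 1 other gene, CR352263.1, on the plus strand. Another member, pvalb6 (ENSDARG00000009311, chr3:24297482-24434905, plus strand), lay elsewhere on that chromosome. On chromosome 12, pvalb9 (ENSDARG00000071601, chr12:17695986-17698669), pvalb3 (ENSDARG00000022817, chr12:17705218-17707517) and pvalb2 (ENSDARG00000002768, chr12:17710425-17712498) followed each other on the minus strand. The last member, pvalb7 (ENSDARG00000034705, chr22:29165330-29242347), was on the minus strand of chromosome 22.

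The whole spans of pvalb2 and pvalb3 fell within CR932017.1, a gene annotated on the opposite strand that had 3 reads over all libraries. Likewise pvalb7 overlapped ncf4, with 0 to 75 reads per library, pvalb6 overlapped csf2rb, with 0 to 76, and pvalb4 overlapped CR352263.1 by 87 bases. These are overlaps of whole gene spans, and whether exons overlap was not examined. Whether counting used the strand was not given in the sources used here. Where exons do overlap, reads from a member and its antisense partner may therefore not be told apart. Reads within these overlaps, or shared between similar members, could also have been split or dropped, which was not tested. The counts of pvalb2 and pvalb3 may therefore be too low.

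The family took 1.16% ± 0.12 of all reads in scoliotic fish, 1.34% ± 0.14 in non-scoliotic fish, 1.82% ± 0.24 in kif7co63/+ fish and 1.16% ± 0.09 in AB fish (SD, n = 3 each). Nearly all of this was pvalb1, the main muscle parvalbumin, which supplied 86.3% to 91.2% of the family's reads in every library. By FPKM, pvalb1 ranked first among all genes in 16 of the 18 libraries and second in both kif7co63/+ pools of 4 dpf. The next member was pvalb4, ranked between 58 and 186. The remaining members were far lower, and pvalb8 ranged from rank 188 to rank 3560 across libraries. The cluster on chromosome 3 thus held both the dominant muscle members and pvalb8.

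At 6 wpf pvalb1 was at 11398, 9953 and 12970 CPM in scoliotic fish, 14571, 13967 and 12277 in non-scoliotic fish, 17311, 17834 and 14059 in kif7co63/+ fish, and 9521, 10536 and 11019 CPM in AB fish. Every kif7co63/+ fish lay above every AB fish, and every non-scoliotic fish did too, while scoliotic and AB fish overlapped. The second muscle member, pvalb4, was at 1204, 1034 and 1356 CPM in scoliotic, 1490, 1379 and 1225 in non-scoliotic, 2482, 2780 and 1878 in kif7co63/+, and 1204, 1417 and 1391 CPM in AB fish. Here kif7co63/+ fish stood above all 9 other fish, which overlapped one another.

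The gene pvalb7, known from Purkinje cells, was at 2.00, 2.30 and 2.62 CPM in scoliotic and 2.85, 2.84 and 3.12 in non-scoliotic fish. In kif7co63/+ fish it was at 8.28, 6.07 and 7.99 CPM, and in AB fish at 4.24, 2.82 and 2.95 CPM. It was low everywhere, with 89 to 417 reads per fish, and the kif7co63/+ fish again stood alone at the top. The hair cell gene pvalb8 was at 20.4, 27.8 and 23.2 CPM in scoliotic, 20.0, 20.3 and 20.6 in non-scoliotic, 15.2, 16.6 and 20.8 in kif7co63/+, and 16.1, 18.7 and 15.998 CPM in AB fish. Scoliotic and non-scoliotic fish all exceeded the AB fish. For pvalb5 the values were 15.7, 9.98 and 19.4 CPM in scoliotic, 15.7, 12.3 and 10.2 in non-scoliotic, 16.6, 24.8 and 20.6 in kif7co63/+, and 16.7, 15.9 and 17.7 CPM in AB fish. Non-scoliotic fish lay below AB and kif7co63/+ fish, and the other groups overlapped. How many of all genes separated the groups of 6 wpf in these ways was not counted.

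**Figure D1:**
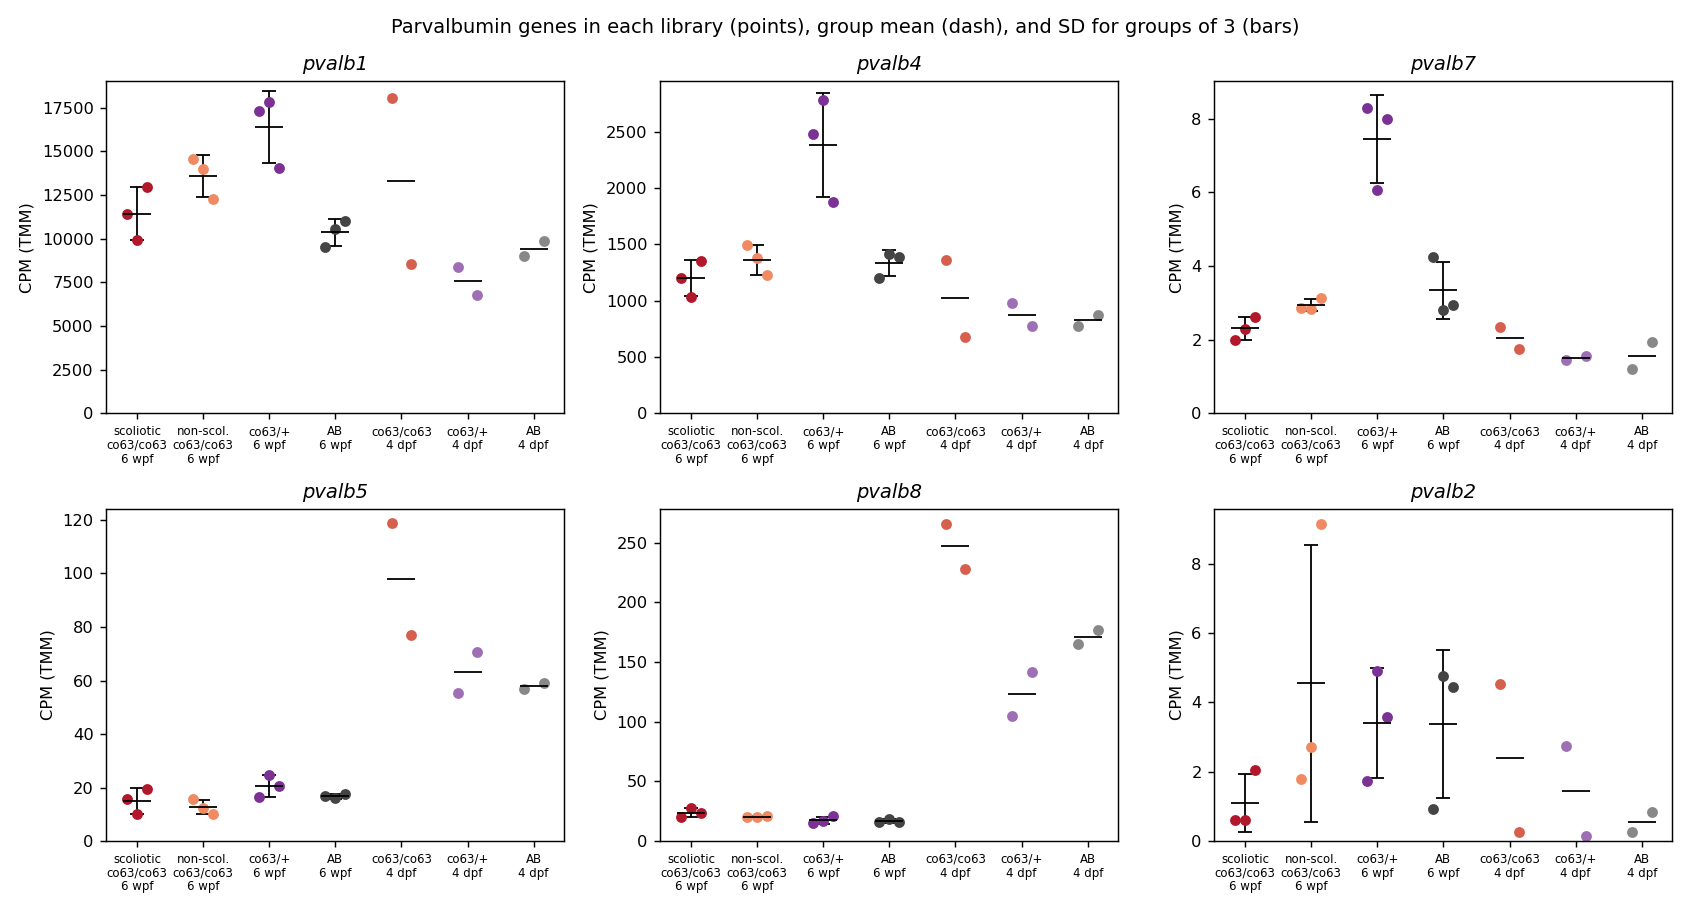
Level of 6 parvalbumin genes in TMM-scaled CPM (linear axis from 0), with 1 point per library, a dash at the group mean and SD bars for the groups of 3. The kif7co63/+ fish of 6 wpf are highest for pvalb4 (1878 to 2780 CPM) and pvalb7 (6.07 to 8.28 CPM), and pvalb8 is at 105 to 266 CPM in the pools of 4 dpf.

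The muscle member pvalb2, whose whole span lay in an overlap, had few counted reads, unevenly within groups. It had 27, 29 and 87 reads in scoliotic, 112, 143 and 395 in non-scoliotic, 82, 245 and 187 in kif7co63/+, and 54, 283 and 311 reads in AB fish. At 4 dpf it had 236 and 15 reads in kif7co63/co63, 150 and 8 in kif7co63/+, and 17 and 44 reads in AB pools, so that pools of 1 genotype differed by up to 18.05-fold in CPM. Of pvalb6 there were 0 to 36 reads per library, with the highest in a kif7co63/co63 pool of 4 dpf. Of pvalb3 there were 31 reads in all, 17 of them in kif7co63/+ fish (2, 2 and 13 reads) and 0 in the 3 scoliotic fish, which allows up to 0.0644 to 0.0708 CPM per scoliotic library. Of pvalb9 there were 2 reads in all. These floors of 3 reads cover counting error only.

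For the tests, 7 of the 9 members passed the filter on low counts over all 18 libraries, and pvalb3 and pvalb9 did not. In each pair of groups at 6 wpf 6 members were tested, without pvalb6. Counts of members called are given beside the share of all tested genes called, since in most pairs of 6 wpf a large share of genes passed.

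In kif7co63/+ against AB fish 3 of 6 members were called, all of them higher. Of all genes, 36.2% were called and 18.6% were called higher. Sex and clutch were not among the sample labels. The mutant allele therefore cannot be told apart from other differences between these fish, such as that in ovary genes described below. The muscle member pvalb1 was 1.59-fold higher (log2 fold change 0.67, SE 0.13, adjusted p = 0.0053), pvalb4 was 1.78-fold higher (0.84, SE 0.16, adjusted p = 0.0050), and pvalb7 was 2.24-fold higher (1.16, SE 0.22, adjusted p = 0.0051). All 3 calls held under each alternative, with adjusted p up to 0.0329, 0.0287 and 0.0243 for pvalb1, pvalb4 and pvalb7. For pvalb5 the log2 fold change was 0.30 (adjusted p = 0.146) and for pvalb8 0.05 (adjusted p = 0.790), and neither was called.

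**Figure D2:**
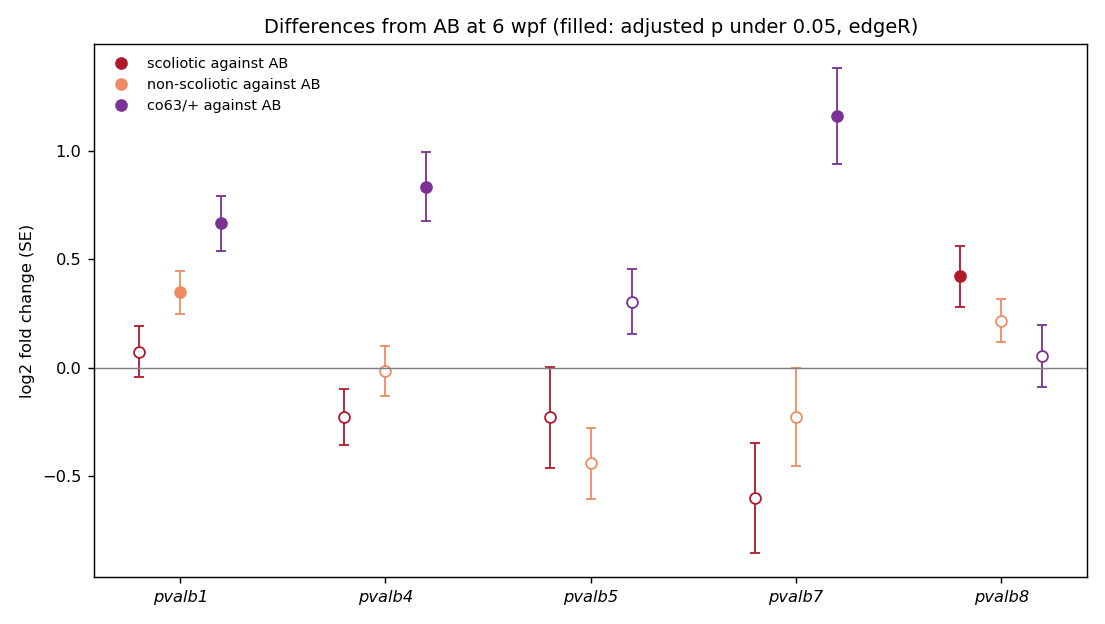
Log2 fold change (bars: SE) of 5 members in scoliotic, non-scoliotic and kif7co63/+ fish, each against the same 3 AB fish at 6 wpf, with filled points for an adjusted p under 0.05. The kif7co63/+ points for pvalb1, pvalb4 and pvalb7 lie at 0.67, 0.84 and 1.16.

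Both kif7co63/co63 groups were set against the same 3 AB fish, so the results share their controls. In scoliotic fish 1 of 6 members was called, where 42.1% of all genes were called and 19.2% were called higher. This was pvalb8, 1.34-fold higher (log2 fold change 0.42, SE 0.14, adjusted p = 0.0495). Across the alternatives its adjusted p lay between 0.0132 and 0.145. The call was lost with RLE size factors (another scaling) and with total counts as library sizes. It held with library sizes taken without the parvalbumin genes. It was also lost without any 1 of 5 of the 6 fish (lowest log2 fold change 0.29), and held without scoliotic fish 1. In the same fish pvalb1 had a log2 fold change of 0.07 (SE 0.12, adjusted p = 0.640), pvalb4 of -0.23 (SE 0.13, adjusted p = 0.196) and pvalb7 of -0.60 (SE 0.25, adjusted p = 0.0994). For pvalb2 it was -1.70 (SE 0.75, adjusted p = 0.111), which was called lower by DESeq2 (adjusted p = 0.0274) and by edgeR without AB fish 1 (0.0449) or scoliotic fish 3 (0.0489).

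In non-scoliotic against AB fish 1 of 6 members was called, where 43.1% of all genes were called and 21.2% were called higher. This was pvalb1, 1.27-fold higher (log2 fold change 0.35, SE 0.10, adjusted p = 0.0272). Across the alternatives its adjusted p lay between 0.0124 and 0.120. The call was lost with total counts as library sizes (adjusted p = 0.0920), with a replicate block (0.0860), and without AB fish 1, AB fish 2, non-scoliotic fish 1 or non-scoliotic fish 2 (0.0982, 0.0592, 0.114 and 0.120). Here pvalb5 had a log2 fold change of -0.44 (SE 0.17, adjusted p = 0.0688), pvalb8 of 0.22 (SE 0.10, adjusted p = 0.115), and pvalb4 of -0.02 (SE 0.12, adjusted p = 0.923). Of these, pvalb5 was called lower by DESeq2. It was also called lower by edgeR with total counts as library sizes and without non-scoliotic fish 1 (adjusted p = 0.0126).

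Scoliotic against non-scoliotic fish asks what went with the curvature among fish of 1 genotype. None of the 6 members was called by edgeR (0 of 6, with 0.380% of all genes called) or by DESeq2, and 1 member, pvalb2, had an unadjusted p under 0.05. For pvalb2 the log2 fold change was -2.04 (SE 0.78, unadjusted p = 0.0358, adjusted p = 0.721). In CPM the groups overlapped, at 0.607, 0.623 and 2.05 in scoliotic fish, against 1.80, 2.73 and 9.14 in non-scoliotic fish. The log2 fold changes of pvalb1, pvalb4 and pvalb7 were -0.24, -0.18 and -0.34, with standard errors of 0.14, 0.13 and 0.23. Those of pvalb5 and pvalb8 were 0.25 and 0.24, with standard errors of 0.27 and 0.13.

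Against the kif7co63/+ fish, 3 of 6 members were lower in scoliotic fish, where 36.9% of all genes were called and 18.5% were called lower. These were pvalb7 (log2 fold change -1.69, SE 0.21, adjusted p = 0.0016), pvalb4 (-0.99, SE 0.17, adjusted p = 0.0055) and pvalb1 (-0.52, SE 0.13, adjusted p = 0.0214). In non-scoliotic against kif7co63/+ fish 3 of 6 were lower too, where 36.6% of all genes were called and 17.9% were called lower. These were pvalb7 (-1.35, SE 0.18, adjusted p = 0.0020), pvalb4 (-0.82, SE 0.16, adjusted p = 0.0078) and pvalb5 (-0.71, SE 0.21, adjusted p = 0.0340), while pvalb1 was at -0.28 (SE 0.11, adjusted p = 0.0815). The call of pvalb1 in scoliotic fish was lost without kif7co63/+ fish 1 or 2 or scoliotic fish 1 or 2 (adjusted p 0.0617 to 0.0822). That of pvalb5 was lost without kif7co63/+ fish 2 or 3 or non-scoliotic fish 2 or 3 (0.0732 to 0.111), and both were lost with a replicate block (0.0680 and 0.0690). In non-scoliotic fish pvalb1 was called lower with the block (adjusted p = 0.0289), with total counts as library sizes (0.0371) and without kif7co63/+ fish 3 (0.0322). In scoliotic fish pvalb2 had a log2 fold change of -1.64 (SE 0.61, adjusted p = 0.0736) and was called lower by DESeq2 (0.0131) and without scoliotic fish 3 (0.0190). There pvalb8 was at 0.44 (SE 0.17, adjusted p = 0.0855) and was called higher in 1 fit of all fish of that age (0.0257). These 2 comparisons share the kif7co63/+ fish.

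Other genes of fast muscle were higher in all 3 mutant groups of 6 wpf. A list of fast muscle genes (contractile proteins and glycolytic enzymes) summed to 86155 to 110286 CPM in scoliotic, 97599 to 100629 in non-scoliotic, 56708 to 62329 in kif7co63/+ and 38541 to 46934 CPM in AB fish. Of its 33 genes tested, 24 were called higher and 1 lower in scoliotic against AB fish (median log2 fold change 1.03, against 0.02 over all genes). In non-scoliotic against AB fish 25 of 33 were higher and 0 lower (median 1.09, against 0.04 over all genes). In kif7co63/+ against AB fish 15 of 33 were higher and 0 lower (median 0.51, against 0.03 over all genes). Among the parvalbumins, pvalb4 was called in kif7co63/+ fish alone, and pvalb1 in kif7co63/+ and non-scoliotic fish. Counts for lists are of gene identifiers, and some gene names had more than 1. Slow muscle identifiers were likewise higher, 9 of 10 in scoliotic, 10 of 11 in non-scoliotic and 5 of 11 in kif7co63/+ against AB fish, with 0 lower. Their median log2 fold changes were 1.06, 1.42 and 0.47, where 19.2%, 21.2% and 18.6% of all genes were called higher. Examples from the fast muscle list in scoliotic against AB fish were the myosin light chain myl1 (log2 fold change 1.29, SE 0.15), the actin acta1b (2.22, SE 0.20) and the tropomodulin tmod4 (1.25, SE 0.15).

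Of the list's defining markers, the creatine kinase ckma and the troponin tnnt3a were present in every library, at 95.1 to 664 and 18.05 to 371 CPM. The last of them, the myosin light chain mylpfa, was near 0 throughout (0 to 3.22 CPM), which goes against the muscle that a whole fish holds. Why it was low was not tested.

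Relative to that list, pvalb1 had 116 to 128 CPM per 1000 CPM of fast muscle genes in scoliotic and 122 to 146 in non-scoliotic fish, against 248 to 295 in kif7co63/+ and 224 to 286 in AB fish. The kif7co63/co63 fish therefore lay below all kif7co63/+ and AB fish on this ratio, with no overlap. For pvalb4 the same ratio was 11.999 to 13.6 in scoliotic, 12.2 to 14.9 in non-scoliotic, 33.1 to 46.0 in kif7co63/+ and 29.8 to 36.1 in AB fish. These ratios are descriptions that rest on the summed list, and were not tested. Its marker ckma alone was at 383 to 664 CPM in scoliotic, 511 to 586 in non-scoliotic and 424 to 607 in kif7co63/+ fish. In AB fish it was at 171 to 266 CPM, so on ckma the kif7co63/+ fish overlapped the kif7co63/co63 fish. The marker tnnt3a was at 28.3 to 71.5, 28.2 to 49.0, 21.2 to 24.9 and 18.05 to 21.4 CPM in the same order of groups, without that overlap.

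**Figure D3:**
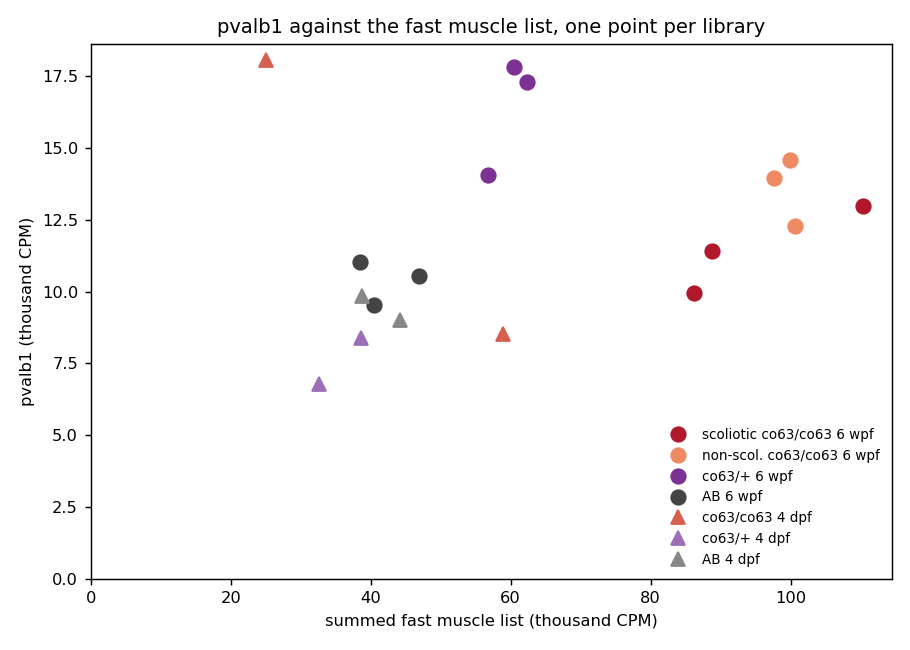
Level of pvalb1 against the summed level of the fast muscle list, both in CPM divided by 1000 on linear axes from 0, with 1 point per library (circles at 6 wpf, triangles at 4 dpf). The 6 kif7co63/co63 fish lie to the right, at list sums of 86155 to 110286 CPM, with pvalb1 within the range of the other fish, and the first kif7co63/co63 pool of 4 dpf lies apart at upper left.

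Genes of the sarcoplasmic reticulum Ca2+ cycle, which release and retrieve the Ca2+ that parvalbumin buffers, were also higher. In scoliotic against AB fish 18 of 23 were higher and 1 lower (median log2 fold change 0.90). The higher ones included the calsequestrin casq2 (1.00, SE 0.08), and the Ca2+ channel subunits cacna1sb (1.23, SE 0.11) and cacnb1 (0.89, SE 0.09). In non-scoliotic against AB fish 19 of 22 were higher and 0 lower (median 0.87), and in kif7co63/+ against AB fish 12 of 22 were higher and 1 lower (median 0.46). Other EF-hand Ca2+ buffers and sensors were also counted. Of 23, 4 were higher and 5 lower in scoliotic against AB fish, 2 higher and 4 lower in non-scoliotic against AB fish, and 4 higher and 2 lower in kif7co63/+ against AB fish. Of all genes, 42.1%, 43.1% and 36.2% were called in these comparisons. The calretinin gene calb2a was among the lower ones in both kif7co63/co63 groups, by -2.10 (SE 0.16) in scoliotic and -1.45 (SE 0.21) in non-scoliotic fish.

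Ovary genes moved with genotype at 6 wpf as well. Their list summed to 2.15 to 270 CPM in scoliotic, 1.35 to 660 in non-scoliotic, 1737 to 3060 in kif7co63/+ and 3116 to 3502 CPM in AB fish. Of its defining markers, the egg envelope gene zp3b was at 0.730 to 94.9 CPM in scoliotic, 1.03 to 262 in non-scoliotic, 529 to 954 in kif7co63/+ and 969 to 1110 CPM in AB fish, and bmp15 and zar1 were in the same order of medians. With sex unlabelled, genotype cannot be told apart from sex or ovary state in these comparisons. The part of this in the parvalbumin results was not tested. For pvalb7, the Purkinje list summed to 86.2 to 101 CPM in scoliotic, 90.1 to 100 in non-scoliotic, 76.3 to 87.3 in kif7co63/+ and 74.2 to 82.1 CPM in AB fish. In kif7co63/+ against AB fish 1 of 6 genes of this list was higher, beside 18.6% of all genes called higher. Its defining markers aldoca and ca8 were at 5.79 to 6.34 and 10.3 to 10.7 CPM in kif7co63/+ fish, against 3.14 to 5.64 and 10.7 to 13.5 CPM in AB fish. For pvalb8, the hair cell list summed to 70.7 to 77.0 CPM in scoliotic and 68.7 to 75.9 CPM in non-scoliotic fish, against 61.0 to 66.9 CPM in AB fish. Of its genes 2 of 16 were higher and 0 lower in scoliotic against AB fish, and 2 of 17 higher and 0 lower in non-scoliotic against AB fish, beside 19.2% and 21.2% of all genes called higher. Of the neuron list 0 of 11 genes were called in either kif7co63/co63 group against AB fish, and 1 was higher and 2 lower in kif7co63/+ fish. Of all genes, 42.1%, 43.1% and 36.2% were called in scoliotic, non-scoliotic and kif7co63/+ against AB fish.

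The balance between the 2 leading muscle members was also described in each group. Per 100 FPKM of pvalb1 there were 3.54 ± 0.03 FPKM of pvalb4 in scoliotic, 3.39 ± 0.06 in non-scoliotic, 4.88 ± 0.38 in kif7co63/+ and 4.37 ± 0.16 in AB fish (SD, n = 3 each). At 4 dpf the ratio was 2.55 and 2.70 in kif7co63/co63, 3.95 and 3.85 in kif7co63/+, and 2.92 and 3.01 in AB pools. At both ages the kif7co63/co63 libraries lay below those of the other genotypes of that age. The 2 kif7co63/co63 pools, which differed in other genes, were close on this ratio. No test of it was run.

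**Figure D4:**
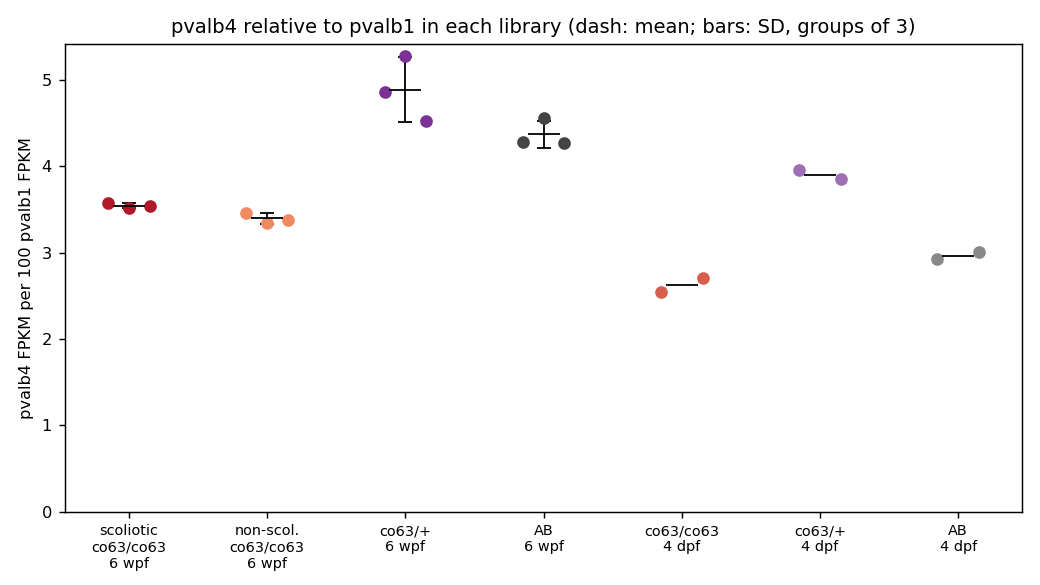
FPKM of pvalb4 per 100 FPKM of pvalb1 (linear axis from 0), with 1 point per library, a dash at the group mean and SD bars for the groups of 3. The 6 kif7co63/co63 fish lie between 3.34 and 3.58, below the AB fish at 4.27 to 4.55.

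At 4 dpf pvalb1 was at 18062 and 8533 CPM in kif7co63/co63, 8373 and 6797 in kif7co63/+, and 9014 and 9856 CPM in AB pools. The first kif7co63/co63 pool was at about the level of the kif7co63/+ fish of 6 wpf, and the second lay below both AB pools. That first pool had a fast muscle sum of 25068 CPM, against 58973 CPM in the second, and a sarcoplasmic reticulum sum of 1729 CPM against 11228 CPM. So the first pool's pvalb1 was the highest of all 18 libraries while its fast muscle and sarcoplasmic reticulum sums were the lowest. The second pool's sums lay outside the other genotypes too, above every AB and kif7co63/+ pool. Those pools were at 32671 to 44247 CPM for fast muscle and 5549 to 6653 CPM for the sarcoplasmic reticulum. For pvalb4 the pools had 1358 and 681 CPM in kif7co63/co63, 977 and 773 in kif7co63/+, and 778 and 875 CPM in AB.

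The hair cell gene pvalb8 was at 266 and 228 CPM in kif7co63/co63, 105 and 142 in kif7co63/+, and 165 and 177 CPM in AB pools, so the genotypes did not overlap. For pvalb5 the pools had 119 and 76.9 CPM in kif7co63/co63, 55.4 and 70.8 in kif7co63/+, and 56.8 and 59.2 CPM in AB, with both kif7co63/co63 pools on top. For pvalb7 they had 2.35 and 1.76 CPM in kif7co63/co63, 1.46 and 1.57 in kif7co63/+, and 1.19 and 1.93 CPM in AB, and the genotypes overlapped. With 2 pools per genotype these orders are descriptions only. How many of all genes separated in the same ways was not counted.

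No member was called at 4 dpf by edgeR or by DESeq2. In kif7co63/co63 against AB pools 0 of 7 were called (0.509% of all genes were) and 0 had an unadjusted p under 0.05. In kif7co63/+ against AB pools 0 of 6 were called (6.21% of all genes), and in kif7co63/co63 against kif7co63/+ pools 0 of 6 (0.0358% of all genes). In each of the last 2 comparisons 1 member, pvalb8, had an unadjusted p under 0.05. For pvalb1 the log2 fold change in kif7co63/+ against AB pools was -0.26 (SE 0.17, adjusted p = 0.403). For pvalb8 it was -0.42 (SE 0.18, adjusted p = 0.206) in kif7co63/+ against AB pools and 0.91 (SE 0.35, adjusted p = 0.912) in kif7co63/co63 against kif7co63/+ pools. In kif7co63/co63 against AB pools it was 0.52 (SE 0.37), and every member there had an adjusted p of at least 0.829.

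Values in the comparisons with kif7co63/co63 pools depended on which of these pools was kept. Fits without either kif7co63/co63 pool leave 1 pool in that group, and more of all genes were called in them. Log2 fold changes alone are therefore given for these fits. In kif7co63/co63 against kif7co63/+ pools the log2 fold change of pvalb2 was -2.51 without the first pool and 1.59 without the other pool. Its direction therefore turned on which pool was kept. In kif7co63/co63 against AB pools, the log2 fold change of pvalb1 was -0.15 without the first pool. It was 0.49 with both pools (SE 0.54) and 0.92 without the other pool. In kif7co63/co63 against kif7co63/+ pools pvalb8 was higher by 0.83 on the log2 scale without the first pool. The log2 fold change of pvalb8 there was 1.06 without the other pool and 0.91 with both (SE 0.35). The direction of pvalb8 in that comparison held in all alternatives, with log2 fold changes of 0.70 to 1.22. A lone pool was assumed to vary like the other group. Of the fast muscle list 0 of 33 genes were called in kif7co63/co63 against AB pools, and 1 of 32 was higher and 5 lower in kif7co63/+ against AB pools.

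Between the ages, pvalb8 and pvalb5 were lower at 6 wpf in all 3 genotypes. Age cannot be told apart from the change from pooled embryos to single fish. In AB, 4 of 7 members were called, against 50.3% of all genes. The hair cell gene pvalb8 was 10.1-fold lower at 6 wpf (log2 fold change -3.34, SE 0.18, adjusted p = 2.2e-08) and pvalb5 3.46-fold lower (-1.79, SE 0.26, adjusted p = 5.8e-05), while pvalb4 was 1.62-fold higher (0.69, SE 0.26, adjusted p = 0.0357) and pvalb7 2.14-fold higher (1.097, SE 0.29, adjusted p = 0.0050). Without AB pool 1 of 4 dpf the count was 2 of the 8 then tested, with pvalb7 at 0.79 (adjusted p = 0.0847). The call of pvalb4 was also lost without AB pool 2 of 4 dpf, AB fish 2 or AB fish 3, and with total counts as library sizes, with adjusted p of 0.0746 to 0.182.

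In kif7co63/+, 5 of 7 members were called, against 41.0% of all genes. Again pvalb8 (log2 fold change -2.81, SE 0.18) and pvalb5 (-1.61, SE 0.26) were lower at 6 wpf, and pvalb1 (1.11, SE 0.26), pvalb4 (1.44, SE 0.27) and pvalb7 (2.30, SE 0.30) were higher, with adjusted p of at most 0.0030. Without kif7co63/+ pool 2 of 4 dpf the call of pvalb1 was lost (adjusted p = 0.0503). In kif7co63/co63, 2 of 7 were called, where 45.9% of all genes were called and 24.8% were called lower, and both were lower at 6 wpf: pvalb8 (-3.49, SE 0.14, adjusted p = 2.0e-09) and pvalb5 (-2.82, SE 0.21, adjusted p = 1.7e-07). Without the first kif7co63/co63 pool of 4 dpf, pvalb1 was at 0.55 and pvalb4 at 0.91 in kif7co63/co63. Without the second pool pvalb1 was at -0.53, so its direction turned on which pool was kept. The calls of pvalb8 and pvalb5 held in all 3 genotypes under every alternative.

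**Figure D5:**
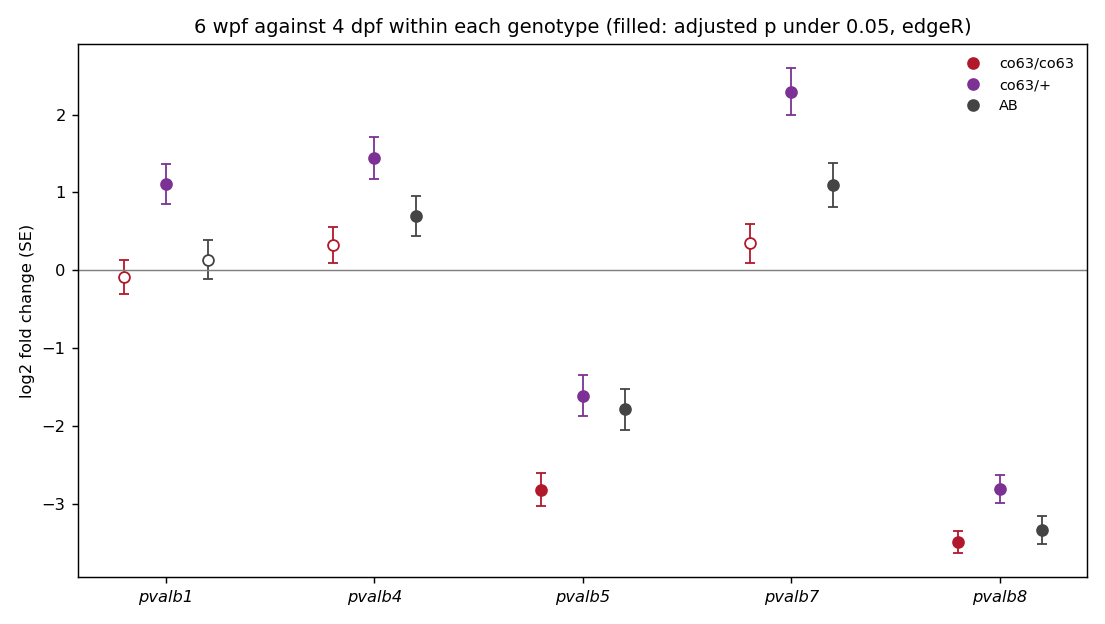
Log2 fold change (bars: SE) of 5 members at 6 wpf against 4 dpf within kif7co63/co63, kif7co63/+ and AB, with filled points for an adjusted p under 0.05. The points of pvalb8 lie at -3.49, -2.81 and -3.34, and those of pvalb5 at -2.82, -1.61 and -1.79.

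Cell type lists were also compared between the ages. The hair cell list summed to 57.1 to 77.0 CPM in the fish of 6 wpf and 107 to 156 CPM in the pools of 4 dpf, and in AB 8 of its 17 genes were lower and 0 higher (median log2 fold change -0.79, against 0.00 over all genes), where 6229 of 24687 genes were called lower. In kif7co63/+ 6 of 17 and in kif7co63/co63 10 of 17 were lower, with 0 higher in both. The Purkinje list had 4 of 7 genes lower and 0 higher in AB (median -0.55), 2 lower and 1 higher in kif7co63/+, and 4 lower and 1 higher in kif7co63/co63. By contrast, pvalb7 was higher at 6 wpf in AB and kif7co63/+ (log2 fold change 1.097 and 2.30). Of the neuron list 9 of 11 genes were lower and 0 higher in AB (median -1.27), 8 lower and 0 higher in kif7co63/+, and 9 lower and 1 higher in kif7co63/co63. What these cell types contributed to the age differences was not tested.

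Whether a genotype's effect differed between the ages was tested directly. For kif7co63/co63 against AB 0 of 7 members were called by edgeR (15.8% of all genes), 1 had an unadjusted p under 0.05, and DESeq2 called 1, pvalb5, with a log2 difference of -1.03 (SE 0.35, adjusted p = 0.0608) in edgeR. With 1 library left out at a time, the kif7co63/co63 pools among them, the log2 difference of pvalb5 ranged from -1.31 to -0.68. It ranged from -0.67 to 0.42 for pvalb1 and from -0.78 to 0.22 for pvalb4. For kif7co63/+ against AB 0 of 7 were called (7.46% of all genes), 2 had an unadjusted p under 0.05, and DESeq2 called 1. The 2 were pvalb1 (log2 difference 0.98, SE 0.35, adjusted p = 0.108) and pvalb7 (1.199, SE 0.39, adjusted p = 0.0794). The kif7co63/co63 pools enter this contrast only through the shared spread. Both genes were called when either of these pools was left out, which leaves 1 pool in that group.

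Over the 12 fish of 6 wpf, which share genotype groups and whole-body composition, pvalb1 and pvalb4 followed each other (Pearson r of log2 CPM 0.87), as did pvalb4 and pvalb7 (0.82). Over all 18 libraries, across which age also differs, pvalb5 and pvalb8 had r = 0.93, though over the 12 fish they had r = -0.51. The genes outside the family most like each member over the 12 fish were rbm10 (0.97), creg1 (0.95) and si:dkey-54g2.2 (0.95) for pvalb1, and atf3 (0.97), rnf150b (0.96) and spint1a (0.96) for pvalb4. For pvalb7 they were syngap1b (0.95), mtnr1bb (0.95) and selenoo1 (0.95), and for pvalb8 the protocadherins pcdh18a (0.92) and pcdh10a (0.92). For pvalb5 they were si:dkey-208c12.2 (0.91), dre-mir-16b (0.91) and adgre10 (0.90). The scarce pvalb2 and pvalb6 had their closest genes at 0.86 (si:ch211-171l17.4) and 0.80 (si:ch211-13c6.2). All are descriptions over 12 fish in 4 groups.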

How the data were processed

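Per the paper's methods and the submitters' processing notes, the authors cleaned the poly(A) mRNA reads with fastp, aligned them to GRCz11 with HISAT2 and counted them per gene with featureCounts. The deposited values used here are raw read counts per gene, not normalized. Strandedness and the treatment of multi-mapping reads were not given in the sources used here. A second deposited table, of the authors' own comparison, held fold changes, p-values and 18 further per-sample columns, and was not used.

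Samples were grouped by genotype, phenotype and age from their labels. Counts were tested with edgeR 4.0.16 in R 4.3.3: TMM library sizes, filterByExpr (minimum count 10, minimum total 15), the two-sided quasi-likelihood test, and Benjamini-Hochberg adjustment over all genes tested, with calls under 0.05. Pairs of groups were fitted alone, and age contrasts and interactions in 1 fit of all 18 libraries, with kif7co63/co63 at 6 wpf as the mean of scoliotic and non-scoliotic fish. Alternatives were other scalings, DESeq2 1.42.0, other filters, other sets of libraries, replicate blocks and left-out libraries. The procedure was tested on simulated data. All 9 family members are named, and of other lists the defining markers and at most 4 called genes by smallest p. The members and lists were chosen with earlier results of these data known. Correlations used log2 CPM with a prior count of 2, over genes passing the filter.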

Additional observations from a re-analysis of the deposited data

Results flagged for a closer look

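A tested member was flagged if a genotype's effect was called as differing between the ages. It was also flagged if mutant and AB libraries were fully separated in opposite directions at the 2 ages. The muscle parvalbumin pvalb1 met the second rule for kif7co63/+ against AB. The order given next is therefore what the rule selected, and how many of all genes would meet it was not counted. All 3 kif7co63/+ fish of 6 wpf (14059 to 17834 CPM) lay above all AB fish (9521 to 11019 CPM), whereas both kif7co63/+ pools of 4 dpf (6797 and 8373 CPM) lay below both AB pools (9014 and 9856 CPM). The log2 fold change was 0.67 at 6 wpf (SE 0.13, edgeR adjusted p = 0.0053) and -0.26 at 4 dpf (SE 0.17, adjusted p = 0.403), so only that of 6 wpf was called. The log2 difference between the effects was 0.98 (SE 0.35), which did not pass the test in edgeR's fit of all libraries (adjusted p = 0.108). Over the alternatives its adjusted p ranged from 0.0045 to 0.304.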

How the results depend on the processing

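Leaving out 1 fish or pool at a time moved the number of members called by edgeR to 0 to 1 in scoliotic against AB, 0 to 1 in non-scoliotic against AB, 0 to 3 in kif7co63/co63 against AB at 4 dpf, 0 to 1 in kif7co63/+ against AB at 4 dpf, 0 to 5 in kif7co63/co63 against kif7co63/+ at 4 dpf, 2 to 4 between ages in AB, 2 to 4 between ages in kif7co63/co63, 0 to 3 in the age difference of the kif7co63/co63 effect and 0 to 2 in that of the kif7co63/+ effect. A lone pool left in a group was assumed to vary like the other groups. In the comparisons within 4 dpf every such fit leaves 1 pool in a group, and counts over all genes moved too. At 6 wpf the genes called ranged from 7139 of 23028 to 9608 of 23312 in scoliotic against AB. In non-scoliotic against AB they ranged from 7514 of 23274 to 9359 of 23361. None of these counts of members is read as a result for the family. Directions turned for these log2 fold changes, none of them called with all libraries. At 6 wpf these ranged from -0.025 to 0.16 for pvalb1 in scoliotic against AB, -0.11 to 0.038 for pvalb4 in non-scoliotic against AB and -0.10 to 0.15 for pvalb8 in kif7co63/+ against AB. In kif7co63/co63 against AB at 4 dpf they ranged from -0.15 to 0.92 for pvalb1 and -0.28 to 0.70 for pvalb4, and in kif7co63/+ against AB at 4 dpf from -0.061 to 0.29 for pvalb4, -0.014 to 0.32 for pvalb5 and -0.31 to 0.40 for pvalb7. In kif7co63/co63 against kif7co63/+ pvalb4 ranged from -0.42 to 0.58. Between ages in kif7co63/co63 the ranges were -0.53 to 0.55 for pvalb1 and -0.086 to 0.91 for pvalb4, and in the age difference of the kif7co63/co63 effect -0.67 to 0.42 for pvalb1 and -0.78 to 0.22 for pvalb4. The scarce pvalb2 also turned, ranging over all alternatives from -0.65 to 0.73 in non-scoliotic against AB, -0.43 to 0.34 in kif7co63/+ against AB, -0.61 to 0.79 in non-scoliotic against kif7co63/+, -1.06 to 3.10 in kif7co63/co63 against AB at 4 dpf, -1.81 to 2.49 in kif7co63/+ against AB at 4 dpf, -2.51 to 3.84 in kif7co63/co63 against kif7co63/+ at 4 dpf, -1.03 to 3.07 between ages in kif7co63/co63, and -3.76 to 0.44 and -2.42 to 1.84 in the age differences of the kif7co63/co63 and kif7co63/+ effects.

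DESeq2 called 2 members in scoliotic against AB, 4 in scoliotic against kif7co63/+ (3 by edgeR, 4 in 1 fit of all fish, and 2 to 4 with 1 fish left out), 2 in non-scoliotic against AB, 1 in the age difference of the kif7co63/co63 effect and 1 in that of the kif7co63/+ effect. Of all genes, DESeq2 called 10631 of 22741 in scoliotic against AB and 10604 of 22891 in non-scoliotic against AB. In scoliotic against kif7co63/+ it called 9516 of 22756, and the fit of all fish called 9550 of 23651. These counts of members are not read as results for the family. In scoliotic against AB, RLE size factors gave 0 and total counts 0. Total counts gave 1 in the age difference of the kif7co63/co63 effect, and a fit of only the groups of the contrast gave 1 in that of the kif7co63/+ effect. With total counts the log2 fold change of pvalb7 in kif7co63/+ against AB at 4 dpf was -0.0063, that of pvalb1 between ages in AB -0.043 and that of pvalb4 between ages in kif7co63/co63 -0.011. That scaling moved the median of all genes by -0.17, -0.25 and -0.32 between ages in AB, kif7co63/+ and kif7co63/co63. In 1 fit of all fish pvalb4 in non-scoliotic against AB was 0.039. Over all 18 libraries the correlation was -0.15 for pvalb2 with si:dkey-33i11.4, -0.65 for pvalb5 with adgre10 and -0.25 for pvalb7 with syngap1b. The causes were not tested.

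With the replicate number as a block 0 members were called in non-scoliotic against AB, against 1 without it, and single calls lost under the block stand in the report. The numbers were not shown to pair samples: same-number deviations correlated at 0.436, 0.293 and 0.0378 in scoliotic and non-scoliotic fish, at -0.127 in kif7co63/co63 and AB pools, and at -0.069 to 0.137 elsewhere.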

Other observations

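Among the Ca2+ cycle genes that surround the parvalbumins, 1 was called between scoliotic and non-scoliotic fish of the same genotype. This was casq1a, a calsequestrin that stores Ca2+ in the sarcoplasmic reticulum, with 81, 65 and 94 reads in scoliotic fish, against 0, 1 and 2 reads in non-scoliotic fish (edgeR adjusted p = 0.0341 over all genes tested). In scoliotic fish this was a low level, 1.40 to 2.22 CPM, where the whole list summed to 10238 to 12462 CPM. For casq1a there were also 72 and 36 reads in the kif7co63/co63 pools of 4 dpf, and 0 to 9 reads in each kif7co63/+ or AB library of either age. Of 23 genes of that list casq1a was the only one called between scoliotic and non-scoliotic fish, where 0.380% of all genes were called. Genes of the lists, casq1a among them, were tested in the main fit only, so how this call fares under the alternatives was not tested.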
